A study of Homo sapiens with 50 samples.

Results

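Quizalofop-p-ethyl at 1 mM was set against control in differentiated HepaRG cells, by total RNA sequencing of 5 libraries of each group. HepaRG is a human liver line from 1 tumour that differentiates into a mixture of cells resembling hepatocytes and bile duct cells. The exposed cells were given quizalofop-p-ethyl at 1 mM, the highest of 3 concentrations, in a DMSO-containing test medium with low serum from day 8 to day 14 of culture. The control group was cultured over the same days with no herbicide listed in its labels. The series holds 50 libraries in 10 groups, the others being the herbicides mesotrione and isoxaflutole and lower concentrations. The comparison took the 5 columns titled for quizalofop-p-ethyl at 1 mM and the 5 titled control, 10 of 50 libraries, and 12907 of 56567 gene names reached at least 1 FPKM in 5 or more of these 10. FPKM, the unit of the deposited table, scales fragments to transcript length and to the depth of the library. Levels below are FPKM summed per gene name, given as mean ± SD of 5 libraries, and each log2 fold change was taken after adding 1 FPKM, so that changes of genes near 0 are understated. The adjusted p come from limma's moderated test over all 12907 genes with Benjamini-Hochberg adjustment, and a gene passed at an adjusted p under 0.05. A gene under 1 FPKM in all 5 controls was tested only if all 5 exposed libraries reached 1 FPKM, and the reverse. Such a gene entered through its high group, so its adjusted p is not independent of that filter. Genes named below of this kind include CYP1A1, FABP4, UNC5B, TAC1, FGF21 and HMOX1, and in reverse CA9, MKI67, COL3A1 and KDR. Whether the 5 libraries of a group are separate cultures is not in the labels, and the p-values therefore measure the spread between these samples alone, which may be technical.

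Quizalofop-p-ethyl is an ester herbicide, an aryloxyphenoxypropionate, whose acid blocks plastid acetyl-CoA carboxylase in grasses and which liver carboxylesterases can hydrolyse. The gene groups that follow are those of stressed and of differentiated liver cells. In the integrated stress response, phosphorylation of the translation factor eIF2alpha slows general translation but raises translation of ATF4, a transcription factor that turns on genes of amino acid synthesis, uptake and tRNA charging. The aryl hydrocarbon receptor (AHR) turns on CYP1 enzymes when flat aromatic ligands bind it, NRF2 turns on antioxidant genes, and peroxisome proliferator-activated receptors (PPARs) turn on genes of lipid handling. Hepatocytes make most plasma proteins, under control of factors such as HNF4A.

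In all, 4995 of the 12907 genes passed, which is 38.7%, with 2220 higher (17.2%) and 2775 lower (21.5%) with quizalofop-p-ethyl. The 5 and 5 libraries did not overlap in 4057 genes (31.4%), all 5 exposed libraries lying above control in 1768 (13.7%) and below it in 2289 (17.7%). Large changes were mostly downward: among genes that passed, 1138 were at least 2-fold lower and 506 at least 2-fold higher, and 133 were at least 8-fold lower and 20 at least 8-fold higher. The median log2 fold change of all genes tested was -0.03. With this background, a gene list in which about 1 in 3 members passed does not stand apart from all genes, and each list below is given by its counts and its median. The lists and their members were chosen with earlier results of these data known.

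**Figure D1:**
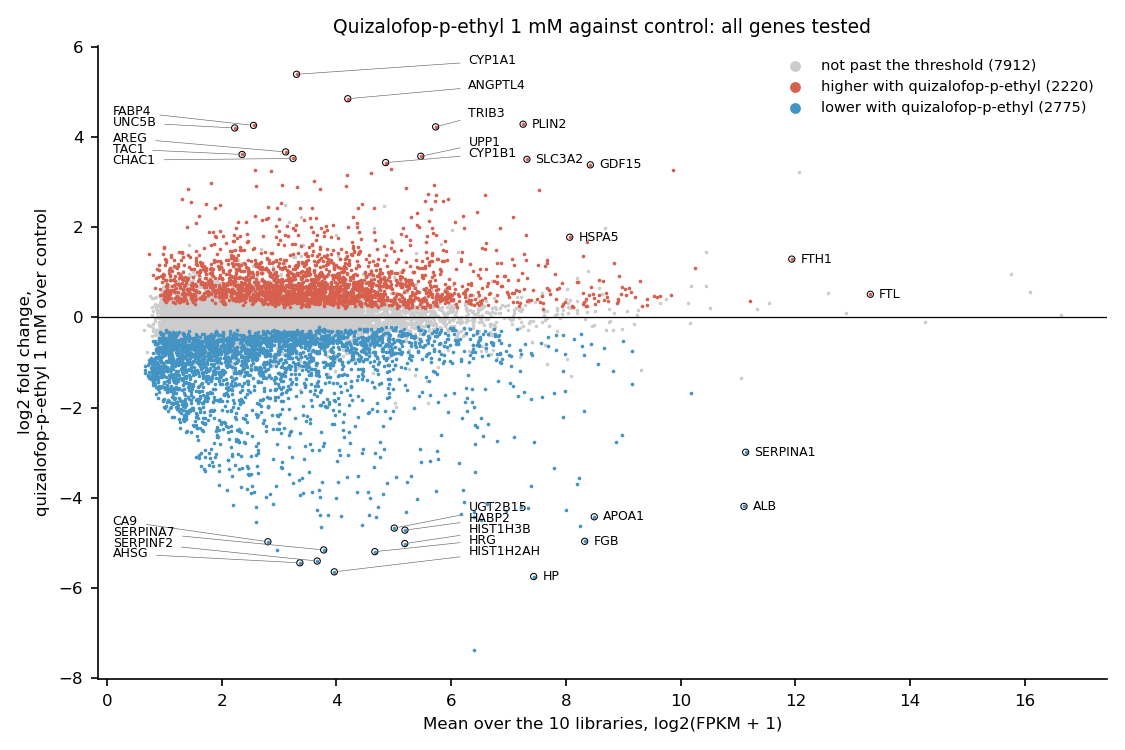
Log2 fold change of quizalofop-p-ethyl 1 mM over control (y axis) against the mean of log2(FPKM + 1) over the 10 libraries (x axis) for the 12907 genes tested, with the 2220 genes that passed higher, the 2775 lower and the rest in separate colours. MT-CO3, at -7.38, is the lowest point. Names mark selected genes, including most of those at either extreme, from CYP1A1 at 5.39 to HP at -5.74.

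The exposed libraries spread more widely than the controls in summed FPKM and in their correlations with each other, and less widely in gene names and depth. Summed FPKM ran from 569268 to 801657 in exposed libraries and from 559096 to 665377 in control, 11718 to 12487 gene names reached 1 FPKM in exposed libraries and 12674 to 13774 in control, and the estimated depth was 1.12e+07 to 1.95e+07 fragments in exposed and 1.18e+07 to 2.46e+07 in control libraries. Exposed replicate 1 had the lowest summed FPKM of its group and exposed replicate 5 the fewest gene names. The 13 mitochondrially encoded subunits held 0.151% to 1.12% of summed FPKM in exposed libraries and 0.207% to 0.363% in control, and ribosomal RNA loci 0.00506% to 0.558% in exposed and 0.00884% to 0.138% in control, exposed replicate 5 being the highest of all 50 libraries in the second. The part of these shares in the results was not tested. Correlations of log2 values were 0.918 to 0.956 among exposed libraries, 0.942 to 0.952 among controls and 0.789 to 0.863 between the groups. The titles number the libraries in 5 runs of consecutive numbers. Exposed replicate 1 and control replicate 5 share the first run, and in all 9 groups other than quizalofop-p-ethyl 1 mM the acute phase gene HP lay at 494 to 3774 FPKM in the library of that run, against 98.6 to 1431 in the other runs. The 98.6 is from quizalofop-p-ethyl 10 uM replicate 5, a library described below, and the next lowest was 233. With mesotrione at 1 mM runs 2 and 4, at 520 and 694 FPKM, lay above the first run at 494. C3, SERPINA3, MMP7, FLNA and CDA were highest in the first run's library in all 10 groups, and HP and CYP1B1 in 9 of 10. Within runs, 212 of 217 named genes past the threshold had the same direction in all 5 runs. That count was largely fixed by the choice of genes, which had passed and in part were required not to overlap. It was not made over all genes tested, so nothing about the runs is drawn from it.

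The genes of the integrated stress response rose as a group. Of 16 regulators tested 13 rose and 1 fell, with a median log2 fold change of 2.32. TRIB3, a pseudokinase induced by ATF4, had 327, 221, 193, 178 and 249.2 FPKM in the 5 exposed libraries against 12.3, 11.2, 10.3, 11.8 and 10.97 in the 5 controls. Each exposed library was far above each control (log2 fold change 4.22 with SE 0.15 and adjusted p = 1.87e-08; located on chromosome 20 from 362835 to 397559, GRCh38). CHAC1, which degrades glutathione and is an ATF4 target, had 32.99, 30.6, 28.3, 25.4 and 39.9 FPKM in exposed libraries against 2.71, 1.98, 1.15, 1.82 and 1.54 in controls (log2 fold change 3.52 with SE 0.16 and adjusted p = 9.11e-08; located on chromosome 15 from 40952962 to 40956519). Exposed replicate 5 was highest and replicate 4 lowest, and none overlapped with control.

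ATF4 itself had 328, 294, 246, 276 and 318 FPKM with quizalofop-p-ethyl against 50.1, 65.3, 57.1, 57.9 and 78.1 in control (log2 fold change 2.23 with SE 0.12 and adjusted p = 3.62e-07; located on chromosome 22 from 39519695 to 39522685). DDIT3, the gene of the death-associated factor CHOP, had 16.2 ± 6.25 FPKM in exposed against 2.12 ± 0.879 in control libraries (log2 fold change 2.46), and PPP1R15A, which guides the phosphatase that reverses eIF2alpha phosphorylation, 152 ± 63.6 FPKM in exposed against 17.9 ± 1.73 in control libraries (log2 fold change 2.93). SESN2, an inhibitor of the growth kinase mTORC1, STC2, a secreted glycoprotein, and DDIT4, another mTORC1 inhibitor, rose too, with log2 fold changes of 2.86, 2.90 and 1.97. ATF3, an early stress factor, varied more, at 140.02, 23.4, 18.7, 102 and 53.4 FPKM in exposed libraries against 10.6, 6.06, 8.36, 8.61 and 7.56 in controls. Exposed replicates 2 and 3 were the low ones of the group, though still above every control (log2 fold change 2.51, SE 0.50, adjusted p = 0.00224, and 3.61 when unnamed assembled transcripts of the locus were added). Of the eIF2alpha kinases, EIF2AK4 (GCN2) fell slightly, at 21.3 ± 1.89 FPKM in exposed against 25.4 ± 1.78 in control libraries (log2 fold change -0.25, adjusted p = 0.0416), and EIF2AK3 (PERK) did not pass, nor did the regulator CEBPB.

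Genes that ATF4 is known to control in amino acid supply rose beside the regulators. ASNS, which makes asparagine, had 106, 108, 80.5, 102 and 85.2 FPKM in exposed libraries against 9.496, 8.297, 9.85, 8.01 and 8.68 in controls (log2 fold change 3.30 with SE 0.10 and adjusted p = 1.3e-08; located on chromosome 7 from 97852118 to 97872542). The 5 exposed libraries were close to each other, far above control. Of 14 tested genes of serine, glycine, asparagine, proline and one-carbon synthesis 8 rose and 3 fell (median 0.96). The serine pathway enzymes PSAT1 and PHGDH rose by 2.73 and 1.70 (log2), and CTH, which makes cysteine from cystathionine, by 2.17. One-carbon enzymes divided by compartment: the mitochondrial SHMT2 and MTHFD1L had 97.8 ± 10.8 FPKM in exposed against 46.4 ± 8.89 in control libraries and 21.99 ± 4.03 FPKM in exposed against 6.88 ± 2.09 in control libraries and both rose, while the cytosolic SHMT1 and MTHFD1 had 7.34 ± 2.56 FPKM in exposed against 18.6 ± 2.697 in control libraries and 23.1 ± 4.27 FPKM in exposed against 31.4 ± 2.695 in control libraries and both fell.

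Of 15 amino acid transporters 8 rose and 2 fell (median 1.33). SLC3A2, the heavy chain shared by several amino acid exchangers, had 668, 487, 482, 498 and 571 FPKM in exposed libraries against 54.02, 53.2, 41.2, 41.4 and 44.2 in controls (log2 fold change 3.502 with SE 0.12 and adjusted p = 1.71e-08; located on chromosome 11 from 62856102 to 62888875), with no overlap. Its partner SLC7A11, the cystine carrier, rose by 2.91, the arginine carrier SLC7A1 by 2.53, the glycine carrier SLC6A9 by 2.24 and the glutamine carrier SLC1A5 by 2.12. The 2 that fell were SLC38A4 (log2 fold change -1.13) and SLC1A1 (-1.06).

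The aminoacyl-tRNA synthetases, which load amino acids onto tRNAs, gave a contrast between compartments. Of 20 cytosolic enzymes 16 rose and none fell (median 1.20), led by GARS (248 ± 45.7 FPKM in exposed against 37.1 ± 6.95 in control libraries, log2 fold change 2.71), YARS (2.57), WARS (2.23) and AARS (1.98). QARS, FARSB, RARS and VARS did not pass. Of 16 mitochondrial enzymes none passed in either direction (median -0.07, from limma, with 5 and 5 libraries), and 1 was lower when unnamed transcripts were added. The difference between the 2 lists was not itself tested.

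The promoters of some of these genes hold the recognition letters of the ATF4 composite element (CARE), here TGATGNAAN on either strand. Shown by rule are 3 stress regulators and amino acid synthesis genes whose 250 bases before the start site hold a match. They are the 3 of that kind with the largest log2 fold change. TRIB3, PPP1R15A, STC2, SESN2 and PSAT1 rose more than ATF3, the last of the 3, and hold no match. The sequences are from RefSeq on GRCh38.p14, printed 5′ to 3′ on the gene's strand in lower case with the CARE match in capitals.
CHAC1 (chr15:40953221-40953470, plus strand): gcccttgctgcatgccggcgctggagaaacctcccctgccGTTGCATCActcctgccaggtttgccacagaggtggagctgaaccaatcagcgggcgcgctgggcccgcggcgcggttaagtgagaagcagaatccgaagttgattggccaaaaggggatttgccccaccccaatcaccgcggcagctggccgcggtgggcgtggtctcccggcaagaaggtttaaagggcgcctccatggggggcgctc
ASNS (chr7:97872409-97872658, minus strand): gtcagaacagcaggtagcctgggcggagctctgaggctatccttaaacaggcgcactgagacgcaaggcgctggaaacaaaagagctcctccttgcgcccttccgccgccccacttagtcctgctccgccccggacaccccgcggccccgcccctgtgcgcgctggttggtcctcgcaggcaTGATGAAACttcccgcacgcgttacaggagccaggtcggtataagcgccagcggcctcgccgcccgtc
ATF3 (chr1:212565157-212565406, plus strand): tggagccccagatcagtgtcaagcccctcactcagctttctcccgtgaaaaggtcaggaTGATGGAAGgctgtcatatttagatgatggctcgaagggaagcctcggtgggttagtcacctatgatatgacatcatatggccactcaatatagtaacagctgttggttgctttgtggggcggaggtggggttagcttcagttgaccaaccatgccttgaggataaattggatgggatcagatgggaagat
The CHAC1 match lies on the reverse strand and the other two on the gene's strand. A match was held by 6 of 13 matched promoters of cytosolic synthetases that rose (46.2%), 3 of 7 of amino acid transporters that rose (42.9%) and 2 of 11 of stress regulators that rose (18.2%), against 1002 of 27305 promoters of the table, 250 bases before to 50 after the start (3.67%), and 156 of the 9522 of genes tested (1.64%). With the gene's strand alone the synthetases' share was 7.69%, against 1.90% of the table and 0.767% of genes tested. Of the 8 amino acid synthesis genes that rose only 6 have a promoter in the table, under 80%, so no share is given for them. These shares are descriptions and carry no test.

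Of 17 cytokines, chemokines and stress hormones 5 rose and 5 fell (median 0.22). The 5 that rose were GDF15, FGF21, VEGFA, IL6 and IL1B, and the chemokines CXCL1 and CCL2 fell (log2 fold changes -2.53 and -2.04). GDF15, a circulating signal of cell stress, had 2262, 1138, 719.7, 623 and 1449.6 FPKM in exposed libraries against 167, 110.2, 104, 94.9 and 71.8 in controls (log2 fold change 3.38 with SE 0.34 and adjusted p = 2.3e-05; located on chromosome 19 from 18374731 to 18389176). Replicate 1 was the highest exposed library and replicate 4 the lowest, and all lay above control. FGF21, a liver hormone of fasting and amino acid lack, had 12.2, 7.56, 2.87, 6.39 and 4.79 FPKM in exposed libraries and was listed at 0 in all 5 controls (adjusted p = 1.44e-05), so no fold is given. It met the filter on low values only through its exposed libraries.

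Endoplasmic reticulum (ER) chaperones did not move as 1 block. Of 22 tested genes 9 rose and 3 fell, with a median of 0.29. HSPA5, the main ER chaperone BiP, had 1414, 327, 388, 327 and 506 FPKM in exposed libraries against 137, 142, 152, 147 and 141 in controls (log2 fold change 1.78 with SE 0.35 and adjusted p = 0.00206; located on chromosome 9 from 125234853 to 125241330). Replicate 1 stood far above the other 4, which still exceeded every control. The same library led for DNAJB9, at 59.8, 11.7, 10.9, 13.5 and 23.1 FPKM in exposed libraries against 6.46, 4.76, 7.31, 6.496 and 6.62 in controls, and for SDF2L1, at 47.99, 12.4, 13.5, 11.7 and 15.4 in exposed libraries against 13.4, 13.9, 13.3, 14.4 and 14.8 in controls, where the other 4 exposed libraries lay on both sides of the control range and the gene did not pass (log2 fold change 0.28, adjusted p = 0.532). The median difference of the 22 genes from the control mean was 1.24 in exposed replicate 1 and 0.00 to 0.32 in replicates 2 to 5. CALR and P4HB, a calcium-binding chaperone and a disulfide isomerase, fell with 329.6 ± 95.7 FPKM in exposed against 513 ± 33.4 in control libraries and 261 ± 95.1 FPKM in exposed against 391 ± 56.7 in control libraries. Among cytosolic and mitochondrial heat shock proteins 7 of 17 rose and 1 fell (median 0.29): HSPA9, the mitochondrial chaperone mortalin, had 184 ± 29.5 FPKM in exposed against 64.5 ± 3.98 in control libraries and rose by 1.49, and HSPB1 fell by 1.20 on the log2 scale, at 164 ± 29.2 FPKM in exposed against 374 ± 47.3 in control libraries.

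**Figure D2:**
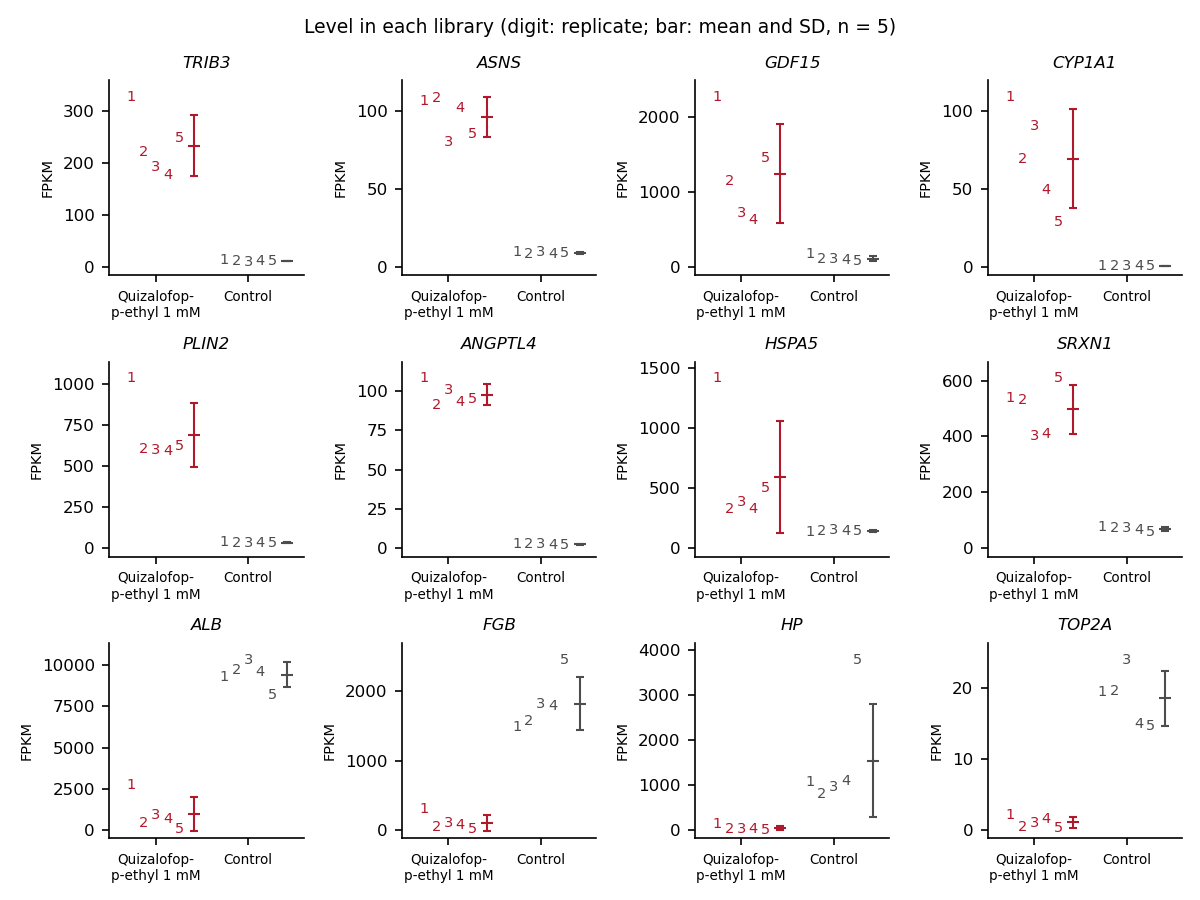
FPKM (y axis, linear from 0) of 12 genes in each of the 5 quizalofop-p-ethyl 1 mM libraries (left) and 5 control libraries (right), each library shown by its replicate number, with the mean and SD beside them. HSPA5, GDF15, PLIN2 and ALB show exposed replicate 1 above the other 4, and the groups do not overlap in any of the 12 genes. The 12 were picked with their values known, several by a rule that requires no overlap. Of all genes tested 31.4% did not overlap.

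NRF2 targets rose in the larger part. Of 19 tested 12 rose and 2 fell, with a median of 0.52. SRXN1, sulfiredoxin, had 536, 529, 402, 407 and 607 FPKM in exposed libraries against 77.02, 71.02, 71.6, 65.1 and 59.7 in controls (log2 fold change 2.82 with SE 0.13 and adjusted p = 8.11e-08; located on chromosome 20 from 646615 to 653370). The lowest exposed library was well above the highest control. GCLM and GCLC, the subunits of the enzyme that starts glutathione synthesis, had log2 fold changes of 1.98 and 1.26 and both rose, and GSR and PGD, which recycle glutathione and make NADPH, rose by 1.07 and 1.27. HMOX1, haem oxygenase, had 1.52, 2.02, 1.54, 1.71 and 8.51 FPKM in exposed libraries under its gene name against 0.333, 0.759, 0.324, 0.166 and 0.287 in controls (log2 fold change 1.35, adjusted p = 0.0091). With the unnamed assembled transcripts of its locus added the log2 fold change was 2.93 (adjusted p = 0.000763). SQSTM1, the autophagy receptor p62, did not pass under its name (log2 fold change 0.62, adjusted p = 0.513) and passed with the unnamed transcripts of its locus (2.09, adjusted p = 1.41e-06). NQO1, another NRF2 target, fell, at 0.838, 0.992, 1.21, 1.22 and 1.42 FPKM in exposed libraries against 2.51, 3.84, 5.75, 2.66 and 2.37 in controls.

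The ferritin chains FTH1 and FTL, which store iron, gave the largest gains in FPKM of protein-coding genes. FTH1 had 6358 ± 1862 FPKM in exposed against 2558 ± 596 in control libraries and FTL 12140.5 ± 1224 FPKM in exposed against 8487 ± 391 in control libraries (log2 fold changes 1.29 and 0.51). Both have many pseudogenes and are uncertain for that reason. Genes that remove peroxides went the other way, with 8 of 14 lower and 1 higher (median -0.57). GPX2, a glutathione peroxidase, had 3.63, 1.04, 2.901, 2.53 and 0 FPKM in exposed libraries against 59.2, 54.3, 63.4, 62.4 and 89.99 in controls (log2 fold change -4.64), and CAT, PRDX4 and PRDX2 had log2 fold changes of -0.93, -0.91 and -0.90.

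CYP1A1, the enzyme most used as a sign of AHR activation, showed the largest log2 rise of any gene named, a rank that rests on the added 1 FPKM: by the ratio of mean FPKM the rise was 131-fold, below the 200.1-fold of UNC5B, which lay near 0 in controls. It had 109, 69.3, 90.4, 49.5 and 28.9 FPKM in exposed libraries against 0.711, 0.589, 0.463, 0.462 and 0.431 in controls (log2 fold change 5.39 with SE 0.30 and adjusted p = 3.95e-07; located on chromosome 15 from 74719542 to 74725610). Replicate 1 was highest and replicate 5 lowest, and no exposed library came near control. CYP1B1, its relative, had 104, 98.3, 109.8, 88.8 and 74.4 FPKM in exposed libraries against 8.51, 6.94, 7.02, 8.197 and 8.64 in controls (log2 fold change 3.43 with SE 0.12 and adjusted p = 1.71e-08; located on chromosome 2 from 38066973 to 38109902). TIPARP, an AHR-induced repressor of the receptor, rose by 1.64. NFE2L2, the gene of the antioxidant regulator NRF2, rose by 0.73. Other members did not rise: AHRR and CYP1A2 did not pass, at 1.87 ± 0.753 FPKM in exposed against 1.804 ± 0.747 in control libraries and 2.01 ± 1.27 FPKM in exposed against 1.0996 ± 0.481 in control libraries, and ALDH3A1, NQO1 and UGT1A6 fell, ALDH3A1 at 34.2, 41.3, 63.6, 65.98 and 20.6 FPKM in exposed libraries against 195, 174, 154, 176 and 141 in controls (its log2 fold change -1.98). Of 11 tested members 5 rose and 3 fell (median 0.40). One of the 5, the AHR partner ARNT, is unsettled, since its log2 fold change of 1.00 became -0.48 (adjusted p = 0.00336) with unnamed transcripts added.
CYP1A1 is shown for its promoter, which holds the AHR core letters GCGTG once in these 250 bases on either strand (capitals), a match that 36.3% of the table's promoters, and 51.3% of those of genes tested, also have.
CYP1A1 (chr15:74725529-74725778, minus strand): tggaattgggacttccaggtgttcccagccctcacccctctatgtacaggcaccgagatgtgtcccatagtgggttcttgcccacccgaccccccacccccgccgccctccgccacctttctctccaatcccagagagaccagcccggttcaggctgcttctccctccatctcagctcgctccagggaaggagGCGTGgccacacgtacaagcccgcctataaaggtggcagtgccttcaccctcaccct

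Genes of lipid storage and PPAR control rose strongly, but few in number. PLIN2, the main coat protein of liver lipid droplets, had 1033, 606, 596, 591 and 621 FPKM in exposed libraries against 36.4, 34.9, 31.3, 31.9 and 33.7 in controls (log2 fold change 4.28 with SE 0.15 and adjusted p = 1.81e-08; located on chromosome 9 from 19108375 to 19149290). ANGPTL4, a secreted inhibitor of lipoprotein lipase, had 108, 91.4, 100.5, 93.05 and 95.04 FPKM in exposed libraries against 2.59, 3.05, 2.54, 1.88 and 2.17 in controls (log2 fold change 4.85 with SE 0.10 and adjusted p = 1.25e-09; located on chromosome 19 from 8363289 to 8374373). The 5 exposed libraries were close to each other for ANGPTL4, while PLIN2 had 1 high library, replicate 1. FABP4, a fatty acid carrier of fat cells, had 17.98, 43.5, 46.1, 32.4 and 7.39 FPKM in exposed libraries against 0.283, 0.615, 0.352, 0.185 and 0.328 in controls (log2 fold change 4.25, adjusted p = 1.83e-05), and replicates 5 and 1 were its low exposed libraries. PDK4, which restrains pyruvate oxidation, rose by 3.16, CPT1A, which brings fatty acids into mitochondria, by 1.00, and PPARG, a receptor of this family, by 1.43.

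Other lipid genes were split. Of 15 lipid droplet genes 4 rose and 4 fell (median -0.25): G0S2, an inhibitor of triglyceride lipolysis, rose by 1.72, and CIDEB, which acts in lipoprotein lipidation, fell (log2 fold change -1.96). In mitochondrial fatty acid oxidation and ketogenesis 5 of 21 rose and 9 fell (median -0.36). The trifunctional protein subunits HADHA and HADHB rose by 0.71 and 0.88, and BDH1, which interconverts ketone bodies, fell (log2 fold change -3.10). In peroxisomal oxidation and omega-hydroxylation 10 of 15 fell and 2 rose (median -0.73), with CYP4A11, EHHADH and CROT at log2 fold changes of -2.39, -1.94 and -1.59.

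In fatty acid synthesis, the pathway that the compound blocks in grasses, few genes passed. Of 14 tested genes (median 0.08) only SREBF1, a regulator of the pathway, passed, and it fell (17.5 ± 7.05 FPKM in exposed against 38.7 ± 6.15 in control libraries, log2 fold change -1.16). ACACA, the human acetyl-CoA carboxylase of fatty acid synthesis, had 23.2, 21.5, 14.3, 23.97 and 15.9 FPKM in exposed libraries against 20.7, 17.4, 10.96, 14.6 and 16.1 in controls (log2 fold change 0.29, SE 0.19, adjusted p = 0.244). ACACB, the isoform that restrains mitochondrial oxidation, had 1.85, 12.2, 11.3, 3.84 and 5.72 FPKM in exposed libraries against 7.76, 8.89, 10.1, 10.4 and 8.46 in controls (log2 fold change -0.56, SE 0.37, adjusted p = 0.267). The groups overlapped in both. FASN and SCD did not pass either, at 77.8 ± 28.7 FPKM in exposed against 47.8 ± 11.7 in control libraries and 564 ± 287 FPKM in exposed against 232 ± 11.9 in control libraries. Summed over the list, exposed replicates 1 to 4 lay at 1303, 924, 961 and 950 FPKM, above all controls (521 to 604). Exposed replicate 5 lay below them at 360. The median difference of the tested members was 0.05 to 0.24 in replicates 1 to 4 and -0.38 in replicate 5. In a fit of all 50 libraries 1 member passed higher and 1 lower. In 24 cholesterol genes 5 rose and 2 fell (median 0.22), a share below that of all genes.

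The enzymes that can cleave ester drugs were also set beside control. CES1, the main liver carboxylesterase, had 1001, 1427, 1339, 1151 and 717 FPKM in exposed libraries against 1078, 1085, 1143, 1365 and 1293 in controls, and CES2 107, 115, 134, 133 and 99.8 in exposed libraries against 115, 110.0, 94.9, 118 and 109 in controls. Neither passed (log2 fold changes -0.12 and 0.10, SE 0.17 and 0.10). Of 10 ester hydrolases 6 fell and none rose (median -1.57), among them PON1, a plasma paraoxonase, and BCHE, butyrylcholinesterase, with log2 fold changes of -3.46 and -2.01.

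Genes of differentiated hepatocytes gave the largest fall of any list. All 20 tested hepatocyte markers fell, with a median of -4.05. ALB, albumin, had 2719, 386, 899.7, 663 and 56.6 FPKM in exposed libraries against 9286, 9681, 10318, 9597 and 8217 in controls (log2 fold change -4.19 with SE 0.80 and adjusted p = 0.00172; located on chromosome 4 from 73397114 to 73421412). Replicate 1 kept the most and replicate 5 the least. AHSG, the gene of fetuin-A in plasma, had 0.561, 1.03, 1.08, 0.3398 and 0.0541 FPKM in exposed libraries against 84.8, 69.2, 62.9, 60.4 and 59.6 in controls (log2 fold change -5.44, SE 0.19, adjusted p = 1.87e-08; located on chromosome 3 from 186612923 to 186621318). Replicate 5 was again the lowest exposed library, and no exposed library came near control. In bulk RNA, fewer cells of a type and less RNA per cell cannot be told apart.

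Plasma proteins fell by role in the same way. Of 18 genes of coagulation 17 fell and none rose (median -2.85), F2, prothrombin, alone not passing under its name and passing at -3.65 (adjusted p = 6.9e-05) with unnamed transcripts. FGB, a fibrinogen chain, had 302, 39.1, 94.1, 75.4 and 6.12 FPKM in exposed libraries against 1479, 1567, 1818, 1791 and 2454 in controls (log2 fold change -4.96 with SE 0.78 and adjusted p = 0.000493; located on chromosome 4 from 154562956 to 154571086). SERPINF2, the plasmin inhibitor, HRG, histidine-rich glycoprotein, and HABP2, a plasma protease, had log2 fold changes of -5.40, -5.19 and -4.72. Complement fell in 15 of 16 genes (median -2.96), C3 at 244 ± 164 FPKM in exposed against 1272 ± 287 in control libraries, C8G at 0.0889 ± 0.142 FPKM in exposed against 18.4 ± 3.25 in control libraries and C6 at 0.644 ± 1.21 FPKM in exposed against 24.999 ± 3.25 in control libraries.

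All 14 acute phase genes fell (median -3.43). HP, haptoglobin, had 135, 12.9, 28.3, 19.1 and 5.67 FPKM in exposed libraries against 1056, 790.1, 951, 1094 and 3774 in controls (log2 fold change -5.74 with SE 0.72 and adjusted p = 0.000103; located on chromosome 16 from 72054592 to 72061055). It is uncertain because of its paralog HPR. Both high values, exposed replicate 1 and control replicate 5, belong to the first run of sample numbers, and within the 5 runs the log2 differences were -4.80, -6.24, -4.76, -5.56 and -7.36. For ALB they were -1.60, -4.58, -3.43, -3.96 and -7.38. Of apolipoproteins and lipoprotein assembly genes 9 of 11 fell and none rose (median -2.62), from APOH at -4.49 and APOA1 at -4.42 (122 ± 118 FPKM in exposed against 1691 ± 300.1 in control libraries) to APOM at -0.99, and APOA2 and LCAT did not pass.

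The fall was graded over libraries. The median difference of the 20 hepatocyte markers from the control mean was -1.86 in exposed replicate 1, -4.10, -3.40 and -3.59 in replicates 2, 3 and 4, and -5.75 in replicate 5. The same order, replicate 1 least and replicate 5 most, held for apolipoproteins (-1.37 and -4.44), coagulation (-1.97 and -4.40), complement (-1.72 and -3.73) and acute phase genes (-2.15 and -4.94). These lists are not all separate, since APOA1, APOH and FGB are hepatocyte markers too. The median of all genes tested also ran from 0.06 in replicate 1 to -0.17 in replicate 5. The order did not hold for stress regulators, where replicates 1 and 5 were the 2 highest (2.70 and 2.61), nor for mitosis genes (-2.13 and -2.76, replicate 4 being the least changed). What sets the libraries apart was not tested.

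**Figure D3:**
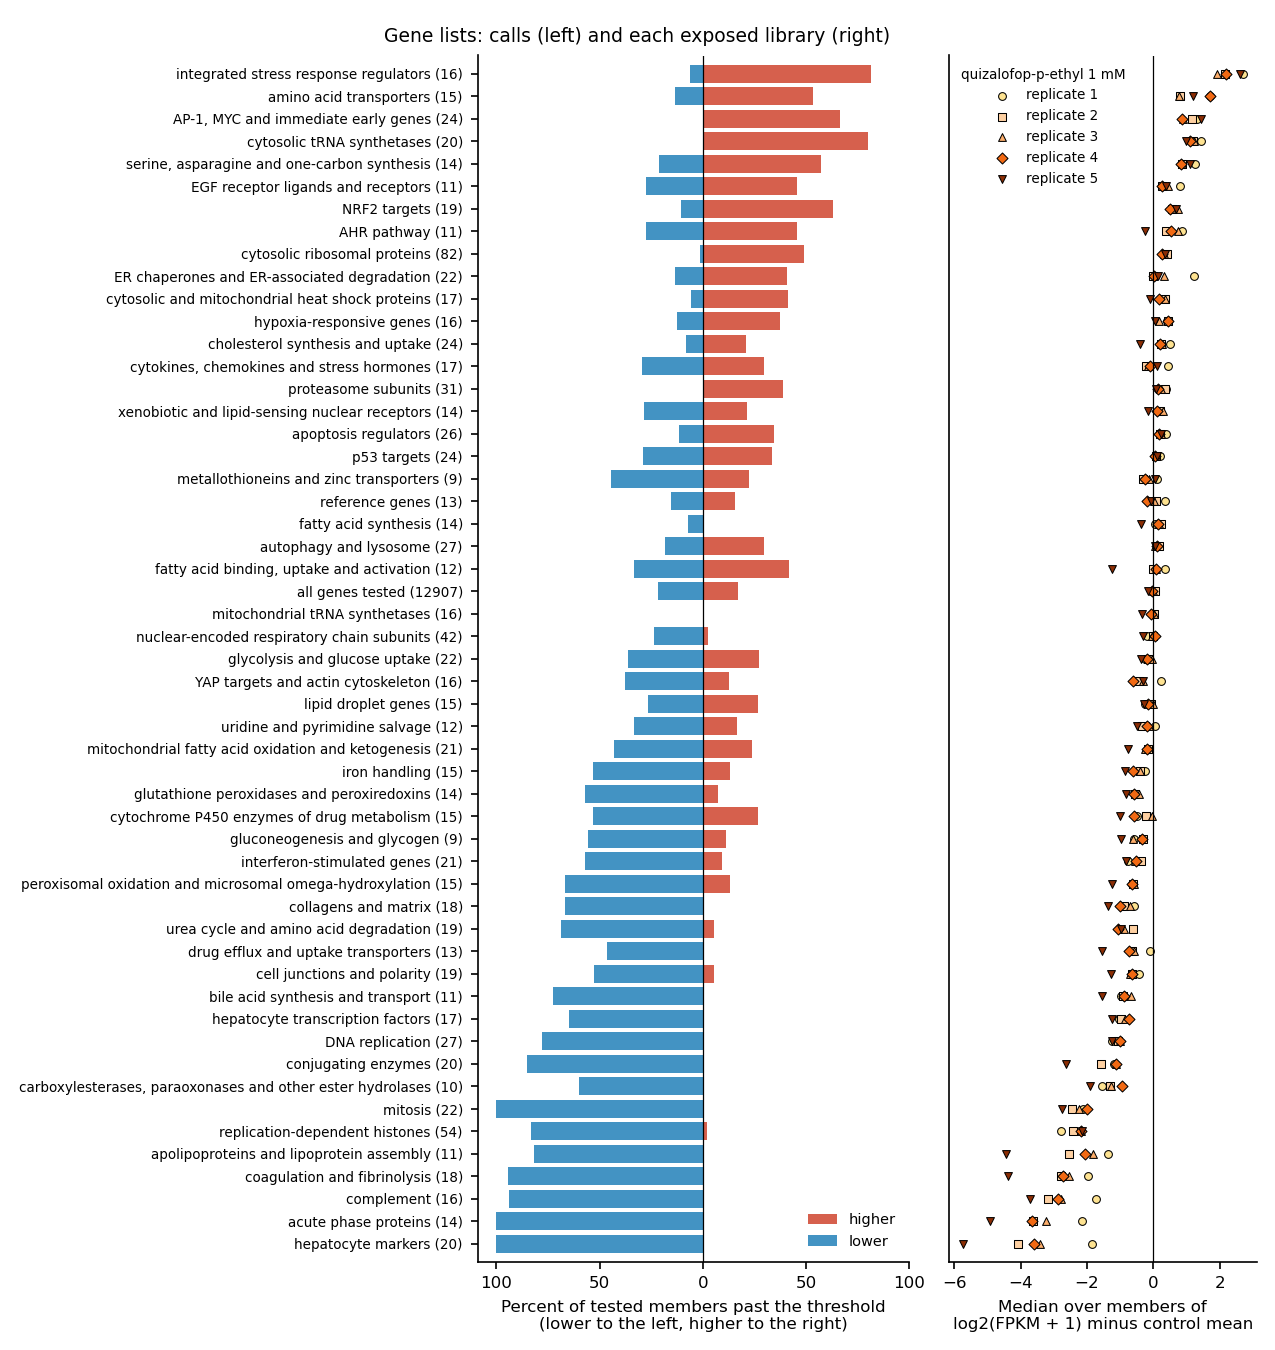
Gene lists with at least 9 tested members (number in brackets) and all genes tested, ordered by median log2 fold change. Left, the percent of members that passed lower (to the left) and higher (to the right) with quizalofop-p-ethyl 1 mM. Right, the median over members of log2(FPKM + 1) minus the control mean in each of the 5 exposed libraries, from about 2.70 for stress regulators to -5.75 for hepatocyte markers.

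Hepatocyte transcription factors fell too. Of 17 tested 11 fell and none rose (median -1.01), 1 being higher when unnamed transcripts were added. HNF4A had 10.3, 5.94, 8.52, 8.24 and 1.49 FPKM in exposed libraries against 27.9, 25.9, 23.2, 27.8 and 28.2 in controls (log2 fold change -1.97), and ONECUT1 1.16, 1.48, 2.33, 3.53 and 0.207 in exposed libraries against 21.6, 23.4, 21.7, 19.5 and 19.8 in controls (log2 fold change -3.15). FOXA1, FOXA3 and PROX1 had log2 fold changes of -2.23, -2.48 and -2.17, FOXA2 did not pass, and CEBPA fell by a smaller amount (18.01 ± 2.27 FPKM in exposed against 24.8 ± 1.82 in control libraries, log2 fold change -0.45).

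Among drug metabolism genes, the 4 of the cytochrome P450 list that rose were CYP1A1, CYP1B1, CYP2R1, a vitamin D hydroxylase, and POR, the electron donor of these enzymes, while 8 of the 15 tested fell (median -0.62). CYP2C8 had 0.918, 0.933, 0.849, 1.49 and 0.0582 FPKM in exposed libraries against 26.7, 29.7, 31.9, 29.9 and 33.1 in controls (log2 fold change -4.13 with SE 0.20 and adjusted p = 1.26e-07; located on chromosome 10 from 95036772 to 95069497), and CYP2E1 0.8803 ± 0.888 FPKM in exposed against 27.01 ± 8.42 in control libraries. CYP3A4, which shares sequence with other CYP3A genes and is uncertain, was low in both groups and fell, with 0.941, 0.147, 2.88, 0.437 and 0.1998 FPKM in exposed libraries against 3.101, 2.7998, 2.65, 2.697 and 2.53 in controls, and replicate 3 overlapped. POR had 157, 237, 161, 188 and 252 FPKM in exposed libraries against 44.6, 32.3, 34.9, 42.3 and 36.5 in controls (log2 fold change 2.34). Conjugating enzymes fell in 17 of 20 genes with none higher (median -1.44): UGT2B15 had 6.901 ± 4.37 FPKM in exposed against 163 ± 27.2 in control libraries, SULT2A1 0.611 ± 0.549 FPKM in exposed against 21.8 ± 4.31 in control libraries and GSTA1 27.98 ± 22.9 FPKM in exposed against 400.3 ± 154 in control libraries, the last uncertain because of GSTA2. UGT1A6 fell too but shares exons with other UGT1A genes, and in the first run its log2 difference was 0.07. Bile acid synthesis and transport fell in 8 of 11 genes, none rising (median -0.91), with BAAT, which conjugates bile acids, at 5.14 ± 3.07 FPKM in exposed against 35.7 ± 2.602 in control libraries and the bile acid receptor NR1H4 at 1.402 ± 0.978 FPKM in exposed against 7.299 ± 2.11 in control libraries. Of 13 drug transporters 6 fell and none rose (median -0.81), ABCC6 and SLC22A7 most (log2 fold changes -2.87 and -2.51).

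Intermediary metabolism gave mixed lists. ALDOA, a glycolytic aldolase, rose by 0.42, and SLC2A1, the glucose carrier GLUT1, rose by 1.90. Both were picked after their values were seen and do not stand for the glycolysis list, where more genes fell than rose. Glycolysis as a list had 6 higher and 8 lower of 22 (median -0.15), and the urea cycle and amino acid degradation 13 lower and 1 higher of 19 (median -0.80), ASS1 being the 1 that rose (317 ± 34.1 FPKM in exposed against 187 ± 19.4 in control libraries). HPD, the enzyme of tyrosine breakdown, fell at 2.27 ± 3.06 FPKM in exposed against 19.7 ± 10.4 in control libraries. Mitochondrial PCK2, an ATF4 target of the gluconeogenic path, rose by 1.48, while G6PC, the last step of glucose output, fell (log2 fold change -1.71).

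Proliferation genes fell. All 22 tested mitosis genes fell (median -2.28), as did 21 of 27 DNA replication genes with none higher (median -1.09). TOP2A, a topoisomerase of dividing cells, had 2.15, 0.467, 0.918, 1.54 and 0.266 FPKM in exposed libraries against 19.4, 19.6, 23.9, 14.8 and 14.7 in controls (log2 fold change -3.29 with SE 0.25 and adjusted p = 3e-06; located on chromosome 17 from 40388516 to 40417950), and MKI67, the gene of the Ki-67 antigen, 0.8001, 0.387, 0.659, 0.983 and 0.155 in exposed libraries against 15.6, 16.98, 15.4, 5.205 and 12.1 in controls (log2 fold change -3.07). RRM2 and TK1, which make DNA precursors, had log2 fold changes of -3.93 and -3.49. The summed level of the 22 mitosis genes was 14.5 FPKM with quizalofop-p-ethyl and 178 FPKM in control. Of 26 listed mitosis genes 22 were tested. Those under 1 FPKM in all 5 exposed libraries, such as MKI67, met the filter on low values only through their controls. The count of mitosis genes that fell is therefore not independent of that filter.

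Replication-dependent histones fell in 45 of 54 genes and rose in 1 (median -2.51). HIST1H3B had 6.07, 4.71, 9.06, 10.5 and 1.35 FPKM in exposed libraries against 269, 219, 179.8, 170.2 and 208 in controls, and HIST1H2AH 3.28, 0, 0, 11.3 and 0 in exposed libraries against 148, 116, 93.9, 94.6 and 101 in controls. Their coding sequences are near-identical between copies, so single genes are uncertain. The cell-cycle homology element (CHR), here TTTGAA or TTCGAA on either strand (the second reads the same on both), marks promoters of many mitosis genes. TOP2A and MKI67 are shown as the 2 mitosis genes with the largest fall that hold it, with the matches in capitals.
TOP2A (chr17:40417897-40418146, minus strand): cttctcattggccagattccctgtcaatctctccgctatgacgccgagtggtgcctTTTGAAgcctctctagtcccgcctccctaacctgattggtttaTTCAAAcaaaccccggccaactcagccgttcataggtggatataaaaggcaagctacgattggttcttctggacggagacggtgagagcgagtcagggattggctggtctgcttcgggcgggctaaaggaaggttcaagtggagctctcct
MKI67 (chr10:128126424-128126673, minus strand): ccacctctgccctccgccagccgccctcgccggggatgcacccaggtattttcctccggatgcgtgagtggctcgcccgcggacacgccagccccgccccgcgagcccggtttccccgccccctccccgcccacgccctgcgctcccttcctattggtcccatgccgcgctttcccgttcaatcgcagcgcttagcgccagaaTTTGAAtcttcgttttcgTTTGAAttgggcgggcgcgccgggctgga
Each holds it 2 times. Only 17 of the 22 mitosis genes have a promoter in the table, under 80%, so no share is given for them. Of the replication genes that fell, 18 of 21 have one: 2 of the 18 hold a CHR (11.1%), beside 16.6% of the table and 11.2% of genes tested, and 12 hold the CCAAT letters on either strand (66.7%), against 35.7% of the table and 37.2% of genes tested.

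Most immediate early genes rose, and genes of the epidermal growth factor receptor system were split. Of 24 AP-1, MYC and immediate early genes 16 rose and none fell (median 1.27). MAFF, a small MAF factor, DUSP5, a phosphatase of ERK kinases, and FOSL1 rose by 3.02, 2.84 and 2.04, and MYC had 137, 80.2, 72.4, 66.4 and 103 FPKM in exposed libraries against 32.2, 23.6, 21.2, 23.8 and 24.4 in controls (log2 fold change 1.80). Of 11 EGF receptor ligands and receptors 5 rose and 3 fell (median 0.56). The ligands AREG, EREG and HBEGF rose by 3.67, 2.48 and 1.24, AREG at 75.3, 21.6, 23.4, 18.9 and 32.6 FPKM in exposed libraries against 1.87, 1.21, 1.34, 1.36 and 1.43 in controls, replicate 1 being high. TGFA and NRG1 rose by 1.00 and 0.56, while the ligand NRG4 fell (log2 fold change -0.87). The receptors ERBB3 and ERBB2 fell too (-1.83 and -0.93), and EGFR did not pass. Of 24 p53 targets 8 rose and 7 fell (median 0.11), a mixed list: PMAIP1 (NOXA), PHLDA3 and CDKN1A (p21) rose by 2.02, 1.48 and 0.77, DDB2 and ZMAT3 fell, and MDM2 did not pass. Of 26 apoptosis regulators 9 rose and 3 fell (median 0.11), the pro-death PMAIP1 and BBC3 and the protective BCL2 being higher, with BCL2 at 7.85 ± 1.28 FPKM in exposed against 2.16 ± 0.633 in control libraries.

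Several genes outside these groups were among the largest rises. UNC5B, a netrin receptor, had 14.8, 25.1, 19.2, 16.96 and 20.6 FPKM in exposed libraries against 0.0363, 0.287, 0.0824, 0.0481 and 0.0298 in controls (log2 fold change 4.20 with SE 0.15 and adjusted p = 1.81e-08), a change of 3.31 with unnamed transcripts added. TAC1, the precursor of substance P, had 21.03, 17.5, 16.05, 15.03 and 15.4 FPKM in exposed libraries against 0.398, 0.447, 0.751, 0.526 and 0.247 in controls (log2 fold change 3.61), and UPP1, uridine phosphorylase, 324, 113, 108, 70.2 and 287 in exposed libraries against 13.3, 16.2, 10.4, 8.896 and 11.7 in controls (log2 fold change 3.57). VEGFA, an angiogenic factor induced by ATF4 and by low oxygen, rose by 2.00. CA9, the carbonic anhydrase induced by low oxygen, fell instead, at 0.155, 0.216, 0.3104, 0.501 and 0.0948 FPKM in exposed libraries against 42.5, 45.1, 45.7, 43.8 and 20.96 in controls (log2 fold change -4.97 with SE 0.21 and adjusted p = 5.96e-08; located on chromosome 9 from 35673856 to 35681159). Of 16 hypoxia-responsive genes 6 rose and 2 fell (median 0.25).

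The median shifts of housekeeping machinery were small, and its counts stand beside the 17.2% of all genes tested that rose. Of 82 cytosolic ribosomal protein genes 40 rose and 1 fell (median 0.31), RPL13, which has near-identical pseudogene copies and is uncertain, by 1.66. Of 31 proteasome subunits 12 rose and none fell (median 0.21), and of 42 nuclear-encoded respiratory chain subunits 1 rose and 10 fell (median -0.10). In a fit of all 50 libraries 5 ribosomal genes, no proteasome subunit and no respiratory subunit passed. Of 13 common reference genes 2 rose and 2 fell (median 0.09), GAPDH and ACTB not passing. Interferon-stimulated genes fell in 12 of 21 and rose in 2 (median -0.70), OAS3 and OAS2 at log2 fold changes of -1.82 and -1.65. Mitochondrially encoded genes are not interpreted, since some were listed at 0 in single libraries, MT-CO3 at 8.25, 1314, 0, 0 and 0 FPKM in exposed libraries against 1027, 1211, 1091, 947 and 1199 in controls. Summed over all 13, they lay at 858, 2094, 8393, 7679 and 8242 FPKM in exposed libraries and at 1344 to 2099.9 in controls, the exposed replicates 3 to 5 being high.

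Most markers of other cell types tested fell beside the hepatocyte genes. Of 7 tested biliary markers 5 fell and none rose (median -1.03), KRT19, a keratin of bile duct cells, at 138, 121, 142, 122 and 68.1 FPKM in exposed libraries against 596, 547, 482, 527 and 516 in controls (log2 fold change -2.21) and CD24 at 10.7, 6.08, 9.699, 7.79 and 2.49 in exposed libraries against 56.9, 61.1, 67.4, 56.9 and 61.5 in controls. SOX9 and CLDN4 did not pass. Of 8 stellate and mesenchymal markers 6 fell (median -1.87), COL3A1 at 0.656, 0.339, 0.353, 0.568 and 0.0108 in exposed libraries against 16.6, 18.99, 19.9, 20.02 and 13.1 in controls. ACTA2 did not pass, nor did PDGFRB, a receptor of stellate cells, with 5.48, 5.39, 1.72, 10.6 and 10.8 FPKM in exposed libraries against 1.03, 2.05, 5.59, 1.06 and 2.12 in controls (log2 fold change 1.18, adjusted p = 0.0546), which passed higher with unnamed transcripts added (log2 fold change 1.096, adjusted p = 0.000202). Of the remaining markers, KDR, the 1 tested endothelial marker, and 3 of 4 leukocyte markers fell. KDR, at means of 0.371 FPKM in exposed and 1.65 in control libraries, met the filter on low values through its controls. The calls of the leukocyte markers MARCO and CD14 were weak, and each was lost in several fits that left out 1 library. Within run 4 CD14 was higher in the exposed library (log2 difference 0.36). Summed over each whole list, biliary markers lay at 87.8 to 188 FPKM in exposed libraries and 639 to 729.85 in controls, stellate markers at 50.3 to 239 in exposed libraries and 262 to 755.5 in controls, and hepatocyte markers at 253 to 5836 in exposed libraries and 21644 to 25474 in controls. Endothelial markers summed to no more than 1.20 FPKM in exposed libraries and 2.44 in controls, and leukocyte markers to no more than 16.15 in exposed libraries and 37.6 in controls. The share of each cell type in the cultures was not measured, and its part in these results was not tested. Genes of epithelial junctions fell in 10 of 19 and rose in 1 (median -0.89), with the gap junction gene GJB1 at 2.56 ± 1.68 FPKM in exposed against 44.7 ± 2.62 in control libraries and CDH1, E-cadherin, at 4.48 ± 1.61 FPKM in exposed against 22.99 ± 3.65 in control libraries, while OCLN, occludin, rose by 0.98.

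The other herbicides at the same concentration gave far fewer changes in these 12907 genes: 325 passed with isoxaflutole at 1 mM against control (2.52%), with 157 higher (1.22%) and 168 lower (1.3%), and 111 with mesotrione at 1 mM against control (0.86%), with 20 higher (0.155%) and 91 lower (0.705%), each in a fit of its own 10 libraries. The same controls serve all 3 comparisons. Compared directly, 4648 genes differed between quizalofop-p-ethyl and isoxaflutole (36%; 1860 higher, 14.4%, and 2788 lower, 21.6%, with quizalofop-p-ethyl) and 4751 between quizalofop-p-ethyl and mesotrione (36.8%; 2097 higher, 16.2%, and 2654 lower, 20.6%).

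The size of the direct difference varied by gene. CYP1A1 averaged 69.4 ± 31.9 FPKM with quizalofop-p-ethyl, 5.89 ± 4.84 with isoxaflutole and 2.17 ± 1.21 with mesotrione at 1 mM, direct log2 differences of 3.45 (adjusted p = 0.000182) and 4.45 (adjusted p = 1.22e-05). ANGPTL4 averaged 97.6 ± 6.75 FPKM with quizalofop-p-ethyl, 25.1 ± 5.93 with isoxaflutole and 3.59 ± 0.516 with mesotrione, and PLIN2 689 ± 192 with quizalofop-p-ethyl, 80.98 ± 7.19 with isoxaflutole and 26.9 ± 3.55 with mesotrione. Among the 12 largest rises, ANGPTL4 and FABP4 had the smallest direct log2 differences from isoxaflutole, 1.94 and 2.18, and PLIN2 had 3.04. TRIB3 averaged 234 ± 59.1 FPKM with quizalofop-p-ethyl, 14.2 ± 1.93 with isoxaflutole and 16.1 ± 2.56 with mesotrione. AHSG averaged 0.612 ± 0.441 FPKM with quizalofop-p-ethyl, 7.19 ± 2.94 with isoxaflutole and 18.3 ± 6.87 with mesotrione. Lower plasma protein genes were thus not particular to quizalofop-p-ethyl. HP lay at 233 to 495 FPKM with isoxaflutole and 315 to 694 with mesotrione at 1 mM, below its control range of 790 to 3774. ALB lay at 3358 to 8214 with isoxaflutole, below its control range of 8217 to 10318. With mesotrione ALB overlapped that range, at 4651 to 10302.

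Over the 3 concentrations of quizalofop-p-ethyl, the large changes were present at 1 mM. TRIB3 lay at 10.3 to 12.3 FPKM in control, 10.1 to 12.3 at 0.1 uM, 11.3 to 14.3 at 10 uM and 178 to 327 at 1 mM. CYP1A1 lay at 0.431 to 0.711 FPKM in control, 0 to 0.271 at 0.1 uM, 0 to 0.812 at 10 uM and 28.9 to 109 at 1 mM. ALB lay at 8217 to 10318 FPKM in control, 9765 to 12359.8 at 0.1 uM, 747 to 10539 at 10 uM and 56.6 to 2719 at 1 mM. The low value at 10 uM comes from replicate 5 of that group, a library with a summed FPKM of 234909 and 5084 gene names at 1 FPKM, the lowest of all 50. These levels are given with no test.

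**Figure D4:**
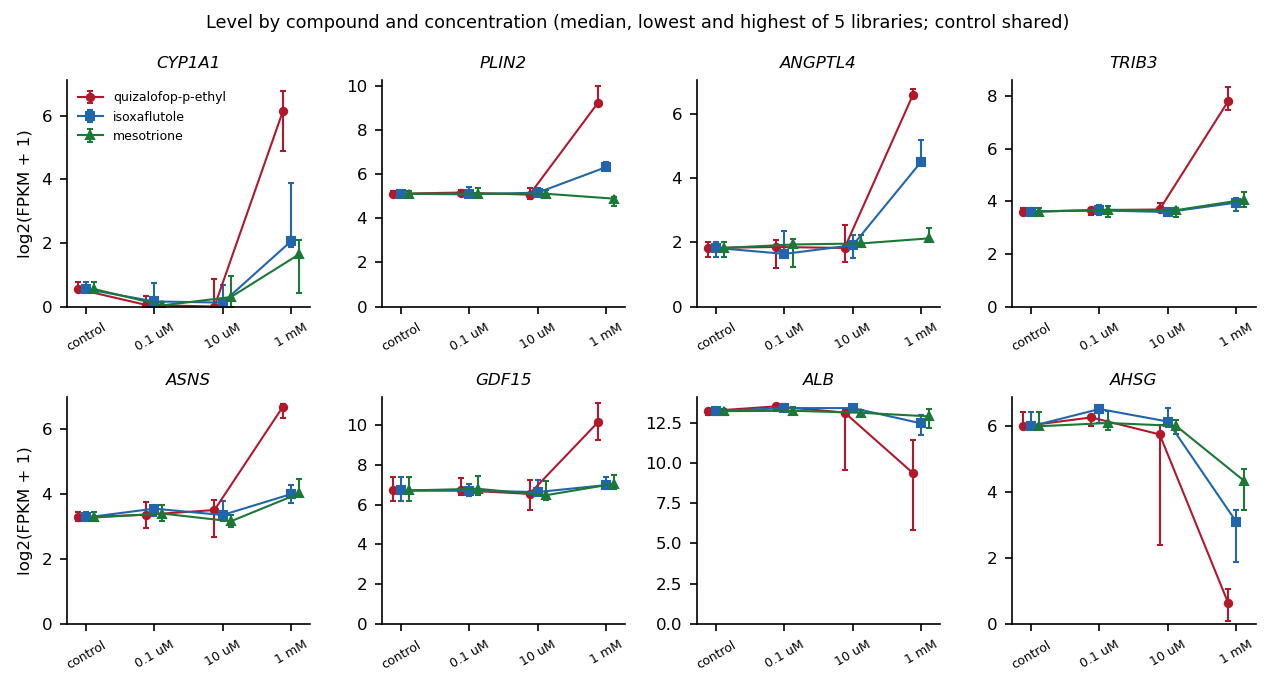
Level as log2(FPKM + 1) (y axis) of 8 genes in control and at 0.1 uM, 10 uM and 1 mM (x axis) of quizalofop-p-ethyl, isoxaflutole and mesotrione, with points at the median and bars from the lowest to the highest of 5 libraries; the control group is the same for all 3. TRIB3, ASNS and GDF15 leave the control range with quizalofop-p-ethyl at 1 mM, where TRIB3 reached 234 ± 59.1 FPKM. The medians of PLIN2, ANGPTL4, CYP1A1 and TRIB3 are also above the control range with isoxaflutole at 1 mM. With mesotrione at 1 mM those of ANGPTL4, CYP1A1 and TRIB3 are above it too. The medians of ALB and AHSG are below the control range with both isoxaflutole and mesotrione at 1 mM.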

How the data were processed

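Total RNA was sequenced as strand-specific paired-end libraries after removal of ribosomal RNA, per the labels' protocols. HISAT, HISAT2, StringTie and GRCh38 are named in the submitters' processing notes without versions, and no strand setting is given there. The authors deposited 1 table of 239290 transcripts in FPKM, and it holds no read counts, so the depth of each library was estimated from single-exon transcripts. FPKM of the 199173 transcripts with an Ensembl gene name were summed per gene name. The other 40117, assembled without a name, were left out, and 24 values below 0 were set to 0. Of the 25 gene names that a spreadsheet had turned into dates, none is named here.

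Genes with at least 1 FPKM in 5 or more of the 10 libraries were tested after adding 1 FPKM and taking log2, by limma 3.58.1 under R 4.3.3 (trend and robust settings, Benjamini-Hochberg adjustment, two-sided, 2 groups, no covariate). The test was run on simulated normal data with the spread of the controls in both groups. It recovered 17 of 50 genes changed by 0.5 on the log2 scale and 48 of 50 changed by 2. Of 162 calls 10 were false. The wider spread of the exposed libraries was not simulated, so the run does not check the test under it. Tables and figures were made in Python 3.11.15 with pandas 2.3.3 and matplotlib 3.10.9. The members, gene lists and tests were chosen with earlier results of these data known. The genes named were the 12 largest rises and the 12 largest falls with at least 5 FPKM in the higher group and no overlap, the 10 largest gains and 10 largest losses in FPKM, up to 4 members with the largest changes in each list and any member of a list of up to 20 genes, and ACACA, ACACB, ALB, CYP1A1, PLIN2, TRIB3, CES1 and CES2. Outside this rule, SDF2L1, CALR, P4HB, SQSTM1, HADHA, HADHB, F2, CYP2R1, POR, CYP3A4, SULT2A1, ALDOA, SLC2A1, ASS1, MYC, FOSL1, CDKN1A, DDB2, ZMAT3, MDM2, NFE2L2, NQO1, IL6, IL1B, TGFA, NRG1, NRG4, ACTA2 and PDGFRB were chosen after their values were seen. Some genes that the rule takes are not reported here. Promoters are RefSeq's, GRCh38.p14, and 9589 of the 12907 tested genes had one.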

Additional observations from a re-analysis of the deposited data

Results flagged for a closer look

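In groups of 5 libraries a value was picked out where the gap between the highest or lowest library and its nearest neighbour was large for the range of the group (Dixon's test at 95%). Of 88 groups checked, over 44 genes, 10 were picked out, and chance picks out about 1 in 20. In exposed replicate 1, 4 genes were far above the other 4 exposed libraries: PLIN2 at 1033 FPKM, HSPA5 at 1414, AREG at 75.3 and HP at 135. In control replicate 5, which shares the first run of sample numbers with that library, HP was high at 3774 FPKM and ORM1, an acute phase glycoprotein uncertain because of its copy ORM2, at 3029, while HRG was low at 115 and CA9 at 21.0. UNC5B was high in control replicate 2, at 0.287 FPKM, a level near 0. RN7SL5P, a signal recognition particle RNA pseudogene with many near-identical copies, was high in control replicate 3 at 3245 FPKM. What sets these libraries apart was not tested.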

How the results depend on the processing

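Against 4995 genes past the threshold in the report, 3266 passed with a mean of at least 5 FPKM required, a filter that tests fewer genes, 1527 of them lower. In a fit of all 50 libraries 2976 passed (1158 higher and 1818 lower), and 2772 differed from isoxaflutole and 2767 from mesotrione. Without replicate 5 of quizalofop-p-ethyl 10 uM, the fit of 49 libraries called 5733. Leaving out 1 library at a time gave 4481 to 4948 calls, 1922 to 2290 higher and 2455 to 2860 lower. Of the genes in the lists, each counted once, 573 to 619 then passed the threshold, against 612. Over all genes tested the runs of sample numbers did not pair the libraries (correlations of 0.010 to 0.061 within runs), though single genes such as HP and C3 were higher in the first run, and with them as a replicate block 4784 genes passed, 2101 higher and 2683 lower. Of the calls, 4864 held with the same direction when unnamed transcripts were added and 2 turned round, one being ARNT. CES1, which did not pass, lay between -0.21 without exposed replicate 2 and 0.037 without exposed replicate 5 on the log2 scale. Of 221 named genes, 18 were no longer past the threshold in the fit of 50 libraries and 10 or fewer under any other alternative that tested all 221, while the 186 tested with a mean of at least 5 FPKM all held. The promoter shares fell with the gene's strand alone. The cause of these differences was not tested. FPKM carry no counts, so no counting error can be given for any level.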
